A study of Mus musculus with 12 samples.

Results

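Transcripts of 10 enzymes that make nicotinamide adenine dinucleotide (NAD) or break down the amino acid tryptophan were followed in mouse kidneys by RNA-seq. The genes were taken by name: Tdo2, Ido2, Afmid, Kmo, Kynu, Haao, Acmsd, Qprt, Nadsyn1 and Nampt, which are 10 of the 24421 gene symbols in the count table. All 10 had a row, and where a symbol had several transcripts the row with the highest total count was used. The 12 libraries came from whole kidneys of 6-week-old male mice, C57BL/6 in the labels and of C57BL/6J background in the methods, with 3 libraries in each of 4 groups. The groups were WT at baseline, Tet2-/- at baseline, WT after ischemia-reperfusion (IR) and Tet2-/- after IR. Tet2 encodes an enzyme that oxidises 5-methylcytosine in DNA, and Tet2-/- mice are labelled as homozygous for its loss. IR kidneys were taken 24 h after the right renal pedicle had been clamped for 60 min and the left kidney removed. Baseline mice had no operation and no sham-operated library is in the series, so that the effect of IR and that of the operation cannot be told apart.

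In the kynurenine pathway, tryptophan is opened to N-formylkynurenine by the dioxygenases Tdo2, Ido1 or Ido2, and the formyl group is removed by Afmid to give kynurenine. Kmo, Kynu and Haao then carry kynurenine to a short-lived semialdehyde that closes on its own to quinolinate, which Qprt turns into the NAD precursor nicotinic acid mononucleotide. Acmsd diverts the same semialdehyde away from NAD, Nadsyn1 adds the last amide group, and Nampt recycles nicotinamide in a separate salvage route. Most enzymes of the kynurenine pathway are best known from the liver, and in the kidney they are found mainly in the proximal tubule.

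The promoters of 3 members that fell after IR and of Nampt, which was not called in any comparison, are shown because TET enzymes act at CpG dinucleotides and these promoters differ widely in CpG content. They are the 250 bases before the start of each gene, 5′ to 3′ along the gene, from RefSeq (build GRCm38.p6), with each CpG in capitals. Afmid lies at chr11:117825669-117825918 (plus strand), Kmo at chr1:175631943-175632192 (plus), Haao at chr17:83846791-83847040 (minus) and Nampt at chr12:32820085-32820334 (plus).
Afmid: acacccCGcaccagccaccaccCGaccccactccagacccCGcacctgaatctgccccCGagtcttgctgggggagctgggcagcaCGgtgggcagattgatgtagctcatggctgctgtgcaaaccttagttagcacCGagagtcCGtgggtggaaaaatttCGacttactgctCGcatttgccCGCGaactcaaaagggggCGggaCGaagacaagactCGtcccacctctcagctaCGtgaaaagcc
Kmo: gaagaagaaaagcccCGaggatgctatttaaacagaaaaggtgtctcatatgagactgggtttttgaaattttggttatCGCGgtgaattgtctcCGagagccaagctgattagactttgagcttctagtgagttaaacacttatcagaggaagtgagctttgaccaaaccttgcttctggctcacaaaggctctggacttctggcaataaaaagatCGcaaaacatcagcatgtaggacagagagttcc
Haao: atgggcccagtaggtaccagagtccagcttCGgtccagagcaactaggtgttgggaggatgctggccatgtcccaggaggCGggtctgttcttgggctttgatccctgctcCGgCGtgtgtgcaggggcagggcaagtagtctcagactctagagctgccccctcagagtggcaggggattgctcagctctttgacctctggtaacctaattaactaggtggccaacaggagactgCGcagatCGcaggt
Nampt: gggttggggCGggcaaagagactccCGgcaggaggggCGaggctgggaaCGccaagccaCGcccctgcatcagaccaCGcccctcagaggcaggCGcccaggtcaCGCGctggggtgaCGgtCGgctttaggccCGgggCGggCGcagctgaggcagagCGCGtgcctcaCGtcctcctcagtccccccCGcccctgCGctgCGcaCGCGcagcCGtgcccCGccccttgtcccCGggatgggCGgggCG
Nampt held 27 CpGs in these 250 bases, Nadsyn1 23, Afmid 15, Haao and Qprt 6 each, Kmo 5 and Tdo2 3. Over 32851 mouse promoters the median was 6 and the quartiles were 2 and 16. These are 7 of the 10 members. Ido2 and Kynu were not in the table. Searched on both strands, TATAAA was found among these 7 in Tdo2 alone, 229 bases before the start, and occurs in 12.4% of all promoters. The E-box CACGTG (6.02% of promoters) and the HNF4 site CAAAGTCCA (0.384%) were in none of the 7. Methylation was not measured.

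Library totals ranged from 51007366 to 107969888 expected counts. Levels are given as FPKM, the read count scaled to transcript length and library size, which allows comparison between genes. The Tet2 transcript did not bear out the genotype labels at baseline: it measured 9.15, 6.25 and 7.33 FPKM in WT and 9.24, 16.6 and 10.3 FPKM in the libraries labelled Tet2-/-. After IR it measured 9.34, 3.97 and 3.85 FPKM in WT and 2.64, 3.20 and 1.76 FPKM in the libraries labelled Tet2-/-. Coverage of the deleted part of the gene was not analysed here, and each direction between genotypes below rests on the labels. WT IR replicate 1 carried less of the tubular injury markers than the other IR libraries, with Havcr1 (kidney injury molecule-1) at 214 FPKM against 559 and 670 FPKM in WT replicates 2 and 3 and 652 to 1432 FPKM in the libraries labelled Tet2-/-. Adipocyte markers were high in WT baseline replicates 2 and 3 and Tet2-/- IR replicate 3, where Adipoq reached 3.01, 15.6 and 10.01 FPKM, while it was listed at 0 in Tet2-/- baseline replicates 2 and 3 and WT IR replicates 1 and 3. Tet2-/- IR replicate 3 was also low in the 4 thick ascending limb markers, with 387 FPKM summed against 2112 and 2616 FPKM in replicates 1 and 2. Of 8 hepatocyte markers, Alb stayed between 0.20 and 0.92 FPKM in all 12 libraries and Mup3 between 0 and 0.012 FPKM. With IR 2 of 7 tested were called lower and 0 higher in WT, against 0.887% and 1.46% of all genes. In kidneys labelled Tet2-/- 2 of 6 were lower and 1 higher, against 11.6% and 12.7%. The summed FPKM of the 8, mostly Cyp2e1, was 877 to 1241 at baseline and 71.1 to 553 after IR. Fgb ran from 0.017 to 0.71 FPKM at baseline and from 3.48 to 134 FPKM after IR. The adrenal gene Cyp11b1 was at or near 0.

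In the resting WT kidney the members spanned a wide range, with Haao far above the rest and Kynu and Tdo2 below 1 FPKM on average. Haao measured 191 ± 32.7 FPKM (SD, n = 3), followed by Qprt (50.5 ± 7.52 FPKM), Afmid (44.9 ± 2.68 FPKM), Kmo (43.3 ± 10.6 FPKM), Acmsd (31.2 ± 6.66 FPKM) and Nampt (29.1 ± 10.2 FPKM). The 5 genes from Qprt to Nampt overlapped with their neighbours in this order, whereas Haao lay above all of them in every library. Nadsyn1 (11.9 ± 0.54 FPKM), Ido2 (5.55 ± 1.41 FPKM), Kynu (0.60 ± 0.49 FPKM) and Tdo2 (0.059 ± 0.036 FPKM) followed, each apart from the next. After IR in the kidneys labelled Tet2-/- the order had changed: Nampt stood at the top with 42.5 ± 16.0 FPKM, overlapping with Haao at 36.6 ± 4.74 FPKM, and Haao in turn overlapped with Qprt at 20.5 ± 12.7 FPKM.

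**Figure D1:**
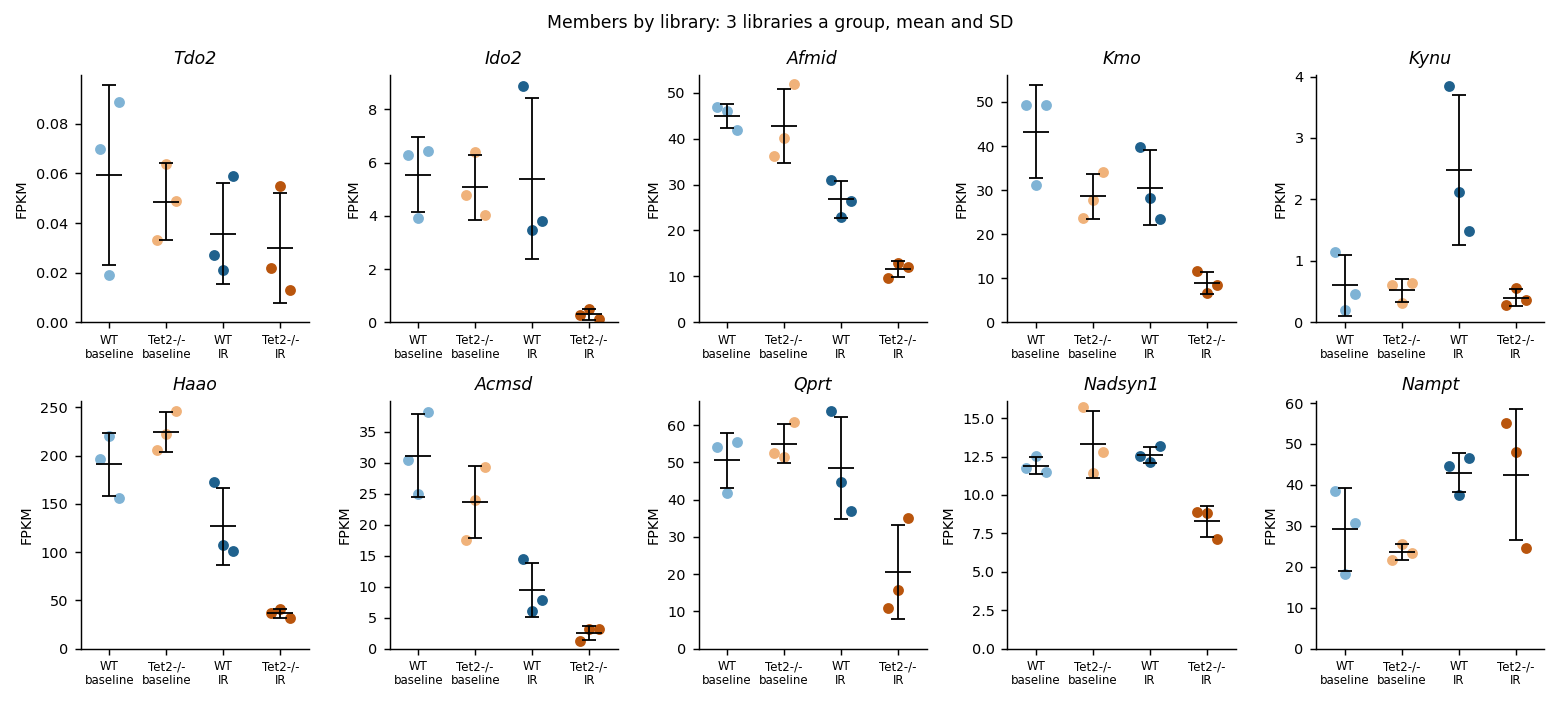
FPKM of each member (vertical axes, linear from 0) in the 4 groups; dots are libraries and black bars the mean and SD of 3. Haao, Afmid, Kmo, Ido2, Acmsd and Kynu were lower in each IR library labelled Tet2-/- than in any WT IR library, while Nampt overlapped between them.

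The question of the design is what IR does to the kidney in each genotype and whether the genotypes differ at rest and after injury. A gene was called when the adjusted p of edgeR's quasi-likelihood test was under 0.05, with Benjamini-Hochberg adjustment over all genes tested, and its log2 fold change was over 1 in size. At baseline no member was called between the genotypes: 0 of 10 members were called by edgeR, 0 had an unadjusted p under 0.05, DESeq2 and edgeR's exact test called 0, and the background was 0.0% of 16086 genes called lower and 0.0124% called higher. In WT kidneys IR lowered 1 of the 9 members tested, Acmsd, and raised 0, against 0.887% and 1.46% of 16015 genes. By unadjusted p 4 members were lower there, Afmid, Kmo, Haao and Acmsd, and 1 was higher, Kynu, which DESeq2 called. In kidneys labelled Tet2-/- IR lowered 6 of 9 (Ido2, Afmid, Kmo, Haao, Acmsd and Qprt) and raised 0, against 11.6% and 12.7% of 16359 genes. After IR, 6 of 9 (Ido2, Afmid, Kmo, Kynu, Haao and Acmsd) were lower in kidneys labelled Tet2-/- than in WT and 0 higher, against 3.85% and 2.3% of 16186 genes. In these last 2 comparisons 0 members were higher by unadjusted p or by DESeq2. Tdo2 was too low for the filter on counts in the comparisons of 2 groups other than that at baseline, and it was tested in the interaction.

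The median log2 fold change of the members tested was -0.13 for IR in WT kidneys, -1.92 for IR in kidneys labelled Tet2-/-, -0.08 between genotypes at baseline and -1.85 between genotypes after IR. Over all genes tested these medians were -0.03, 0.04, 0.00 and 0.04. Without the limit on fold change, 2, 7 and 7 members were lower for IR in WT, IR in kidneys labelled Tet2-/- and between genotypes after IR, against 1.14%, 20.3% and 6.17% of genes, the additions being Afmid for IR in WT and Nadsyn1 in both others, and 0 were higher, against 1.88%, 22.9% and 3.51%. In FPKM, groups that did not overlap were lower for 2 members and higher for 1 with IR in WT (10.4% and 18.9% of all genes), lower for 7 and higher for 0 with IR in kidneys labelled Tet2-/- (17.9% and 40.5%), lower or higher for 0 at baseline (16.5% and 3.06%), and lower for 8 and higher for 0 between genotypes after IR (14.6% and 22.0%). Scaling by library sizes alone raised the median of all genes by 0.23 for IR in kidneys labelled Tet2-/- and by 0.10 between genotypes after IR, and the same 6 members and 6 members were called lower under it.

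**Figure D2:**
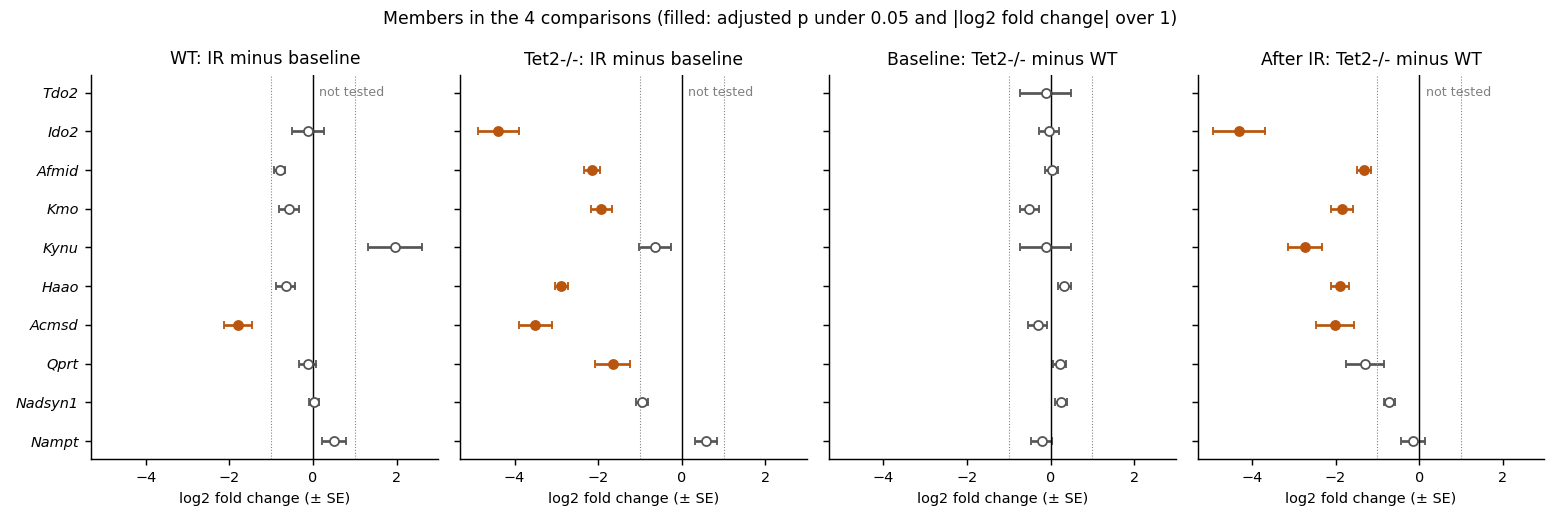
log2 fold change (horizontal axes) with its SE for each member in the 4 comparisons; filled points passed both limits and dotted lines mark a log2 fold change of 1. Acmsd alone is filled for IR in WT, 6 members are filled for IR in Tet2-/- and 6 between genotypes after IR, and none at baseline.

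Proximal tubule markers moved in the same comparisons. Of 14 such markers tested, 2 fell with IR in WT kidneys (0.887% of all genes) and 11 in kidneys labelled Tet2-/- (11.6%). After IR 6 were lower in kidneys labelled Tet2-/- than in WT (3.85%). The medians of the 14 were -0.74, -1.92 and -1.45 on the log2 scale. Their summed FPKM, mostly Kap, ranged from 36497 to 54943 at baseline in WT and from 54230 to 55082 in libraries labelled Tet2-/-. After IR it ranged from 23185 to 27239 and from 14950 to 23795, with no marker at 0. Kap alone measured 20100 to 23749 FPKM in WT IR and 13868 to 22443 FPKM in IR libraries labelled Tet2-/-. The mean log2 level of the 14 markers is less governed by Kap. At baseline it was 7.87 to 8.35 in WT and 7.75 to 8.20 in libraries labelled Tet2-/-. After IR it was 7.18 to 7.62 in WT and 6.01 to 6.18 in libraries labelled Tet2-/-, without overlap. The sodium-phosphate transporter Slc34a1 measured 760, 477 and 716 FPKM in WT IR and 228, 188 and 214 FPKM in the IR libraries labelled Tet2-/-. All 8 neutrophil markers tested rose with IR in kidneys labelled Tet2-/-, against 12.7% of all genes. The summed FPKM of the 9 neutrophil markers listed was 75.5 to 134 there against 4.06 to 9.49 in WT IR. In whole-kidney RNA, fewer cells of a type and less RNA per cell cannot be told apart. The part of these markers in the members' changes was not tested.

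The pathway opens with the tryptophan dioxygenases. Tdo2, the liver's main tryptophan dioxygenase (chr3:81762336-81779650 in mm9, minus strand), was barely detected, with 2 to 15.5 counts and 0.013 to 0.089 FPKM over the 12 libraries. Ido1, the immune-inducible dioxygenase, was as low, at 0 to 0.089 FPKM, and was tested in no comparison. Ido2, a related dioxygenase of low activity (chr8:25642364-25686805, minus strand), was therefore the dioxygenase with the highest FPKM.

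Ido2 measured 6.29, 3.92 and 6.43 FPKM in WT at baseline and 4.77, 6.41 and 4.04 FPKM in libraries labelled Tet2-/-. After IR it measured 8.87, 3.48 and 3.83 FPKM in WT and 0.275, 0.501 and 0.104 FPKM in libraries labelled Tet2-/-. All 3 IR libraries labelled Tet2-/- thus lay below 1 FPKM and below each of the other 9 libraries. With IR it fell in kidneys labelled Tet2-/-, with a log2 fold change of -4.38 (SE 0.50, adjusted p = 0.000595), and in WT the log2 fold change was -0.12 (SE 0.38, adjusted p = 0.879). Between genotypes after IR the log2 fold change was -4.31 (SE 0.62, adjusted p = 0.0138), and it was -4.28 with adjusted p = 0.0537 without Tet2-/- IR replicate 1 and -3.42 with adjusted p = 0.0527 without both WT IR replicate 1 and Tet2-/- IR replicate 3. At baseline it was -0.04 (SE 0.24, adjusted p = 0.952). On the log2(FPKM + 1) scale, which compresses low levels, limma gave -2.22 both for IR in kidneys labelled Tet2-/- and between genotypes after IR, and the values with the adipocyte markers as a covariate were both -3.76.

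Afmid, arylformamidase, which frees kynurenine from formylkynurenine (chr11:117687233-117701222, plus strand), overlaps Tk1 on the opposite strand, and whether counting used strand is not given in the sources used here. It measured 46.9, 46.0 and 41.9 FPKM in WT at baseline, 36.3, 40.2 and 51.9 FPKM in libraries labelled Tet2-/-, 31.0, 23.0 and 26.5 FPKM in WT after IR, and 9.56, 13.0 and 11.998 FPKM in IR libraries labelled Tet2-/-. The 3 levels (baseline, WT IR and Tet2-/- IR) did not overlap. In WT its log2 fold change with IR was -0.80 (SE 0.14, adjusted p = 0.0355), short of the limit of 1, and in kidneys labelled Tet2-/- it fell, with a value of -2.16 (SE 0.19, adjusted p = 0.000258). After IR it was lower in kidneys labelled Tet2-/- than in WT, with a log2 fold change of -1.32 (SE 0.18, adjusted p = 0.0125), and at baseline the value was 0.02 (SE 0.16). The call after IR was lost with the adipocyte markers as a covariate (-1.36, adjusted p = 0.0520) and without both WT IR replicate 1 and Tet2-/- IR replicate 3 (-1.32, adjusted p = 0.0669).

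Kmo, the mitochondrial kynurenine 3-monooxygenase (chr1:177562324-177590984, plus strand), measured 49.4, 31.1 and 49.4 FPKM in WT at baseline and 23.8, 27.8 and 34.0 FPKM in libraries labelled Tet2-/-. After IR it measured 39.9, 28.3 and 23.4 FPKM in WT and 11.7, 6.75 and 8.45 FPKM in libraries labelled Tet2-/-, so that only the last group lay apart from the other 3. IR lowered it by a log2 fold change of -1.92 (SE 0.25, adjusted p = 0.00103) in kidneys labelled Tet2-/-, and in WT the value was -0.58 (SE 0.24, adjusted p = 0.219). After IR the log2 fold change between genotypes was -1.85 (SE 0.27, adjusted p = 0.0146), and this call too was lost with the adipocyte covariate (-1.88, adjusted p = 0.0581) and without both of those libraries (-1.63, adjusted p = 0.0879). At baseline the value was -0.51 (SE 0.22, adjusted p = 0.431), the lowest among the members, and the libraries overlapped.

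Kynu, kynureninase, which cleaves the side chain (chr2:43410845-43538568, plus strand), was the only member with a higher level in every WT IR library than in any WT baseline library. It measured 1.15, 0.195 and 0.455 FPKM in WT at baseline, 0.607, 0.309 and 0.635 FPKM in libraries labelled Tet2-/-, 3.85, 2.12 and 1.48 FPKM in WT after IR, and 0.277, 0.551 and 0.366 FPKM in IR libraries labelled Tet2-/-. The IR libraries labelled Tet2-/- overlapped with baseline, and the WT IR libraries lay above the other 9. With IR in WT the log2 fold change was 1.97 (SE 0.65, adjusted p = 0.143), and with the replicate number as a block it was 2.20 with adjusted p = 0.0201. No label gives a reason for such a block. For IR in kidneys labelled Tet2-/- it was -0.64 (SE 0.39, adjusted p = 0.216). After IR, Kynu was lower in kidneys labelled Tet2-/- than in WT, with a log2 fold change of -2.73 (SE 0.41, adjusted p = 0.0158), and the value was -2.53 with adjusted p = 0.0517 without Tet2-/- IR replicate 1, -2.65 with 0.0622 with the adipocyte covariate and -2.30 with 0.0801 without both WT IR replicate 1 and Tet2-/- IR replicate 3. The file lists 3 Kynu transcripts, and the other 2 gave log2 fold changes of -2.91 and -2.74 in this comparison. On the log2(FPKM + 1) scale limma gave -1.26 between genotypes after IR and 1.11 for IR in WT, where the value was 1.29 with the adipocyte covariate and 2.84 without WT baseline replicate 1.

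Haao, the 3-hydroxyanthranilate dioxygenase that makes the branch-point semialdehyde (chr17:84230694-84246130, minus strand), had the largest drop in FPKM. It measured 197, 220 and 156 FPKM in WT at baseline and 205, 223 and 246 FPKM in libraries labelled Tet2-/-. After IR it measured 173, 107 and 101 FPKM in WT and 37.3, 41.0 and 31.6 FPKM in libraries labelled Tet2-/-. WT IR replicate 1, the library with the lower injury markers, lay within the range of baseline, and the IR libraries labelled Tet2-/- lay below all others. In kidneys labelled Tet2-/- Haao fell with IR, with a log2 fold change of -2.88 (SE 0.15, adjusted p = 5.19e-05), and in WT the value was -0.66 (SE 0.22, adjusted p = 0.152). Between genotypes the log2 fold change was -1.89 (SE 0.21, adjusted p = 0.0106) after IR and 0.33 (SE 0.16, adjusted p = 0.464) at baseline.

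At the branch point, Acmsd fell with IR in both genotypes and Qprt in kidneys labelled Tet2-/-. Acmsd, the decarboxylase that leads away from NAD (chr1:129625990-129664141, plus strand), measured 30.5, 24.9 and 38.1 FPKM in WT at baseline, 17.6, 24.01 and 29.3 FPKM in libraries labelled Tet2-/-, 14.4, 6.08 and 7.84 FPKM in WT after IR, and 1.22, 3.09 and 3.16 FPKM in IR libraries labelled Tet2-/-. Each IR group lay below its baseline group without overlap, and the IR groups did not overlap with each other. The log2 fold changes of Acmsd with IR were -1.80 (SE 0.33, adjusted p = 0.0400) in WT and -3.51 (SE 0.39, adjusted p = 0.000586) in kidneys labelled Tet2-/-. The call in WT was lost when any library other than WT IR replicate 1 was left out, with log2 fold changes of -1.82 and adjusted p = 0.122 without WT baseline replicate 1, -1.91 and 0.0821 without replicate 2, -1.61 and 0.0983 without replicate 3, -1.51 and 0.102 without WT IR replicate 2, and -1.73 and 0.132 without WT IR replicate 3.

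After IR, Acmsd was lower in kidneys labelled Tet2-/- than in WT, with a log2 fold change of -2.02 (SE 0.46, adjusted p = 0.0391). This call was lost without WT IR replicate 1 (-1.61, adjusted p = 0.112), WT IR replicate 3 (-2.09, adjusted p = 0.0851) and Tet2-/- IR replicates 1 (-1.69, adjusted p = 0.0785), 2 (-2.13, adjusted p = 0.0845) and 3 (-2.30, adjusted p = 0.0605), without both WT IR replicate 1 and Tet2-/- IR replicate 3 (-1.90, adjusted p = 0.111), with the adipocyte covariate (-2.17, adjusted p = 0.0995) and with the replicate block (-2.00, adjusted p = 0.0719). At baseline the value for Acmsd was -0.31 (SE 0.23, adjusted p = 0.588).

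Qprt, quinolinate phosphoribosyltransferase, which commits the pathway to NAD (chr7:134251284-134265543, minus strand), measured 54.3, 41.9 and 55.5 FPKM in WT at baseline, 52.4, 51.6 and 61.0 FPKM in libraries labelled Tet2-/-, and 63.8, 44.9 and 37.0 FPKM in WT after IR. In IR libraries labelled Tet2-/- it measured 10.997, 15.7 and 35.0 FPKM, the third being the library with high adipocyte markers and few thick ascending limb transcripts. The WT IR libraries overlapped with baseline, and those labelled Tet2-/- did not. With IR Qprt fell in kidneys labelled Tet2-/-, with a log2 fold change of -1.65 (SE 0.42, adjusted p = 0.0165), which became -2.37 without Tet2-/- IR replicate 3 and -2.50 with the adipocyte covariate, and in WT the value was -0.13 (SE 0.20, adjusted p = 0.738). Between genotypes after IR the value was -1.30 (SE 0.45, adjusted p = 0.112), which did not pass edgeR's quasi-likelihood test. It passed with DESeq2 (adjusted p = 0.0262), edgeR's exact test (0.0348) and 1 fit of all 12 libraries (0.0328), each at -1.30, and it was -2.02 with adjusted p = 0.0347 without Tet2-/- IR replicate 3. At baseline it was 0.21 (SE 0.15, adjusted p = 0.556).

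Nadsyn1, NAD synthetase, which completes NAD from both the kynurenine and the nicotinate routes (chr7:150981497-151008757, minus strand), had the smallest SD relative to its mean in WT at baseline. It measured 11.8, 12.5 and 11.5 FPKM in WT at baseline, 15.7, 11.4 and 12.8 FPKM in libraries labelled Tet2-/-, 12.5, 12.2 and 13.2 FPKM in WT after IR, and 8.92, 8.81 and 7.13 FPKM in IR libraries labelled Tet2-/-. The last group lay below all other libraries. The log2 fold change for IR in kidneys labelled Tet2-/- was -0.94 (SE 0.14, adjusted p = 0.00199) and that between genotypes after IR -0.71 (SE 0.14, adjusted p = 0.0253), both under the limit of 1 in size. For IR in kidneys labelled Tet2-/- the value passed 1 without Tet2-/- baseline replicate 2 (-1.05) or Tet2-/- IR replicate 1 (-1.02). In WT it was 0.03 (SE 0.12, adjusted p = 0.918) with IR.

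Nampt, the rate-limiting enzyme of NAD salvage from nicotinamide (chr12:33505200-33538234, plus strand), was called in no comparison. It measured 38.4, 18.2 and 30.8 FPKM in WT at baseline, 21.6, 25.6 and 23.4 FPKM in libraries labelled Tet2-/-, 44.7, 37.5 and 46.7 FPKM in WT after IR, and 55.1, 47.9 and 24.5 FPKM in IR libraries labelled Tet2-/-. In each genotype the IR libraries overlapped with baseline, in WT through baseline replicate 1 and in Tet2-/- through IR replicate 3. Log2 fold changes with IR were 0.50 (SE 0.28, adjusted p = 0.339) in WT and 0.58 (SE 0.26, adjusted p = 0.111) in kidneys labelled Tet2-/-. Over the alternatives the latter ran from 0.31 without Tet2-/- IR replicate 1 (adjusted p = 0.335) to 0.83 without Tet2-/- IR replicate 3 (adjusted p = 0.00736) and 0.97 with the adipocyte covariate (adjusted p = 0.00921), all under the limit of 1. In WT it ran from 0.25 with the adipocyte covariate to 0.75 without baseline replicate 1. Between genotypes the values were -0.21 (SE 0.25, adjusted p = 0.720) at baseline and -0.14 (SE 0.29, adjusted p = 0.785) after IR. The noncoding gene Gdap10 overlaps Nampt on the same strand, and reads shared by both could be split between them.

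Whether the IR effect differed between genotypes was tested as an interaction over all 12 libraries. The difference of the log2 fold changes, labelled Tet2-/- minus WT, passed an adjusted p of 0.05 for 4 of 10 members, all with a negative difference, where 5.39% of 16741 genes passed in that direction and 3.79% in the other. These were Ido2 (-4.23, SE 0.66, adjusted p = 0.00549), Haao (-2.19, SE 0.27, adjusted p = 0.00381), Afmid (-1.31, SE 0.23, adjusted p = 0.00913) and Nadsyn1 (-0.93, SE 0.18, adjusted p = 0.0131). Kmo (-1.30, adjusted p = 0.0561), Kynu (-2.57, adjusted p = 0.0664), Acmsd (-1.67, adjusted p = 0.0717) and Qprt (-1.48, adjusted p = 0.0949) did not pass. With the replicate number as a block within each genotype, 8 members passed, these 4 included. Leaving out 1 library brought in Kmo without Tet2-/- IR replicate 1 (adjusted p = 0.0417), Kynu without WT baseline replicate 1 (0.0233), Acmsd without WT IR replicate 2 (0.0382) and Qprt without Tet2-/- IR replicate 3 (0.00653). Nampt gave 0.12 (SE 0.42, adjusted p = 0.886) and Tdo2 -0.19 (SE 0.98, adjusted p = 0.925). With the adipocyte markers as a covariate, an alternative chosen after seeing the data, 0 members passed, and the values for Ido2, Haao, Afmid and Nadsyn1 were -3.29, -1.91, -1.28 and -0.87, with adjusted p from 0.0518 to 0.111.

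Ratios of FPKM within a library set the branches of the pathway against each other. Acmsd to Qprt was 0.562, 0.594 and 0.687 in WT at baseline, 0.336, 0.465 and 0.480 in libraries labelled Tet2-/-, 0.226, 0.135 and 0.212 in WT after IR, and 0.111, 0.198 and 0.0903 in IR libraries labelled Tet2-/-. It was lower after IR in both genotypes without overlap, by a mean log2 difference of -1.72 in WT and -1.75 in kidneys labelled Tet2-/-. At baseline it was also lower in libraries labelled Tet2-/- than in WT without overlap, by -0.54, and after IR the genotypes overlapped. Nampt to Qprt was 0.708, 0.434 and 0.555 in WT at baseline and 0.413, 0.496 and 0.384 in libraries labelled Tet2-/-. After IR it was 0.701, 0.836 and 1.26 in WT and 5.01, 3.06 and 0.700 in libraries labelled Tet2-/-. The FPKM of Nampt thus lay above that of Qprt in WT IR replicate 3 and in 2 of the 3 last libraries.

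Aadat, Ccbl1 and Ccbl2, 3 kynurenine aminotransferases, which turn kynurenine into kynurenic acid, compete with Kynu for kynurenine. Their summed FPKM over that of Kynu was 333, 1260 and 655 in WT at baseline and 598, 770 and 469 in libraries labelled Tet2-/-. After IR it was 57.8, 62.4 and 89.5 in WT and 254, 93.8 and 241 in libraries labelled Tet2-/-. The ratio was lower after IR in each genotype, and the IR libraries of WT lay below those labelled Tet2-/-. With 3 libraries against 3 the exact two-sided permutation test cannot give a p below 0.1, and over the 12 ratio tests the adjusted p was 0.171 or more.

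**Figure D3:**
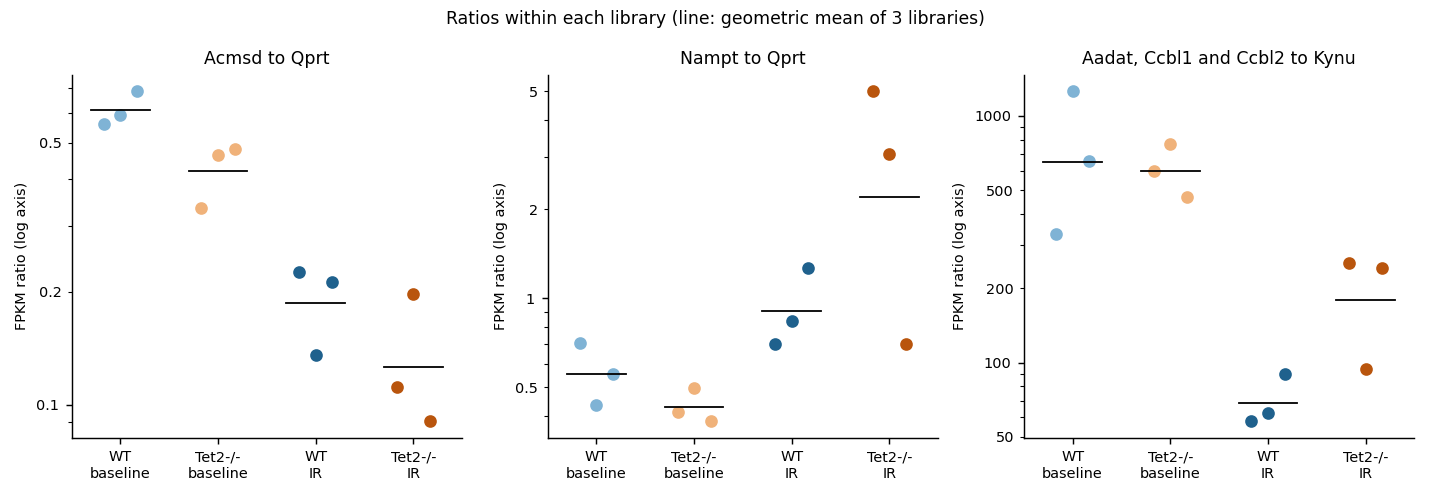
FPKM ratios within each library (log axes); dots are libraries and lines the geometric mean of 3. Acmsd to Qprt lay between 0.336 and 0.687 at baseline and between 0.0903 and 0.226 after IR, and Nampt to Qprt passed 3 only in 2 IR libraries labelled Tet2-/-.

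Of 36 other genes of tryptophan and NAD metabolism, 34 were tested. IR in WT kidneys lowered 0 by edgeR (4 by unadjusted p, and 1, Aadat, by DESeq2) and raised 1, Ddc, against 0.887% and 1.46% of all genes tested. IR in kidneys labelled Tet2-/- lowered 8 and raised 4, against 11.6% and 12.7%, so that the count raised was near the background. Between genotypes at baseline 0 were called by edgeR or DESeq2, and 6 had an unadjusted p under 0.05. After IR 4 were lower in kidneys labelled Tet2-/- and 0 higher by edgeR, against 3.85% and 2.3% of all genes, where unadjusted p gave 4 higher and DESeq2 called 1, Slc7a5. The medians of their log2 fold changes in these 4 comparisons were -0.05, -0.26, 0.05 and -0.28, closer to those of all genes than the medians of the members were.

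In the kynurenine branch, 3 genes fell with IR in kidneys labelled Tet2-/-, with log2 fold changes of -3.87 for Aadat (SE 0.41, adjusted p = 0.000454), -2.71 for Ccbl2 (SE 0.29, adjusted p = 0.000467) and -1.01 for Ccbl1 (SE 0.29, adjusted p = 0.0242). Aadat had measured 234, 99.0 and 183 FPKM in WT at baseline and measured 115, 39.2 and 41.3 FPKM in WT after IR and 20.4, 8.34 and 12.7 FPKM in IR libraries labelled Tet2-/-. After IR, Aadat (-2.32, SE 0.52, adjusted p = 0.0378) and Ccbl2 (-2.35, SE 0.25, adjusted p = 0.0104) were lower in kidneys labelled Tet2-/- than in WT. The Ccbl1 call was lost without Tet2-/- baseline replicate 1 or 3 or Tet2-/- IR replicate 1 or 2, with log2 fold changes of -0.79 to -1.42 over all libraries left out in turn, and the Aadat call between genotypes was lost in 5 of 6 such fits, all but that without WT IR replicate 2 (-1.65 to -2.70). Ddc, which decarboxylates aromatic amino acids, rose in WT kidneys, with a log2 fold change of 1.02 (SE 0.14, adjusted p = 0.0175), a call lost in 5 of 6 such fits (0.91 to 1.14), all but that without WT IR replicate 2.

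In salvage, Naprt, which brings nicotinic acid into NAD, fell with IR in kidneys labelled Tet2-/-, with a log2 fold change of -1.45 (SE 0.16, adjusted p = 0.000511), as did Nmrk1, a nicotinamide riboside kinase, with -1.14 (SE 0.14, adjusted p = 0.000766). Nmrk1 fell short of the limit on fold change with library sizes alone (-0.92) and with limma on log2(FPKM + 1) (-0.87) or log2(FPKM + 0.1) (-0.88). Naprt measured 32.0, 20.2 and 22.7 FPKM in WT after IR and 11.9, 13.6 and 14.5 FPKM in libraries labelled Tet2-/-, without overlap. Nmnat1, the nuclear adenylyltransferase shared by all routes, gave -0.37 (SE 0.21, adjusted p = 0.196) in kidneys labelled Tet2-/- and 0.44 (SE 0.16, adjusted p = 0.166) in WT.

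Among genes that use NAD or its precursors, the mitochondrial deacetylase Sirt3 (log2 fold change -1.89, SE 0.16, adjusted p = 0.000246) and the mitochondrial transhydrogenase Nnt (-1.12, SE 0.20, adjusted p = 0.00368) fell with IR in kidneys labelled Tet2-/-. Nnt fell short of the limit, at -0.96, without Tet2-/- IR replicate 2. In the same comparison 2 genes that consume nicotinamide or act on its products rose from levels near or below 1 FPKM: Nnmt, which methylates nicotinamide, with a log2 fold change of 1.48 (SE 0.51, adjusted p = 0.0482), and Aox1, an oxidase, with 1.81 (SE 0.35, adjusted p = 0.00520). The Nnmt call held without Tet2-/- IR replicate 1 and was lost in the other 5 such fits, with log2 fold changes from 1.14 to 1.77. After IR, Sirt3 was lower in kidneys labelled Tet2-/- than in WT, with a log2 fold change of -1.31 (SE 0.22, adjusted p = 0.0196), a call kept only without WT IR replicate 2 or Tet2-/- IR replicate 1 when 1 library was left out (-1.14 to -1.50).

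Of the transporters, Slc22a13, the tubular carrier of urate and nicotinate, fell with IR in kidneys labelled Tet2-/- with a log2 fold change of -4.45 (SE 0.71, adjusted p = 0.00235), below any other of the 34 genes. It measured 43.9, 31.3 and 39.8 FPKM in WT at baseline, 57.7, 23.2 and 20.9 FPKM in WT after IR, and 6.10, 2.37 and 0.77 FPKM in IR libraries labelled Tet2-/-. Between genotypes after IR its log2 fold change was -3.55 (SE 0.76, adjusted p = 0.0348), and this call too was kept only without WT IR replicate 2 or Tet2-/- IR replicate 1 (-2.96 to -4.56 over the 6 fits). Slc7a5 and Slc3a2, the 2 chains of the exchanger that brings tryptophan and kynurenine into cells, rose, with log2 fold changes of 1.64 (SE 0.30, adjusted p = 0.00430) and 1.35 (SE 0.28, adjusted p = 0.00689). Slc7a5 was 1.52, 1.20 and 1.08 FPKM at baseline in libraries labelled Tet2-/- and 5.38, 6.35 and 2.58 FPKM after IR. Ppargc1a, a coactivator known to raise kynurenine pathway genes in the tubule, gave -0.69 (SE 0.20, adjusted p = 0.0282) with IR in kidneys labelled Tet2-/-, under the limit of 1, and -0.37 (SE 0.31, adjusted p = 0.512) in WT.

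**Figure D4:**
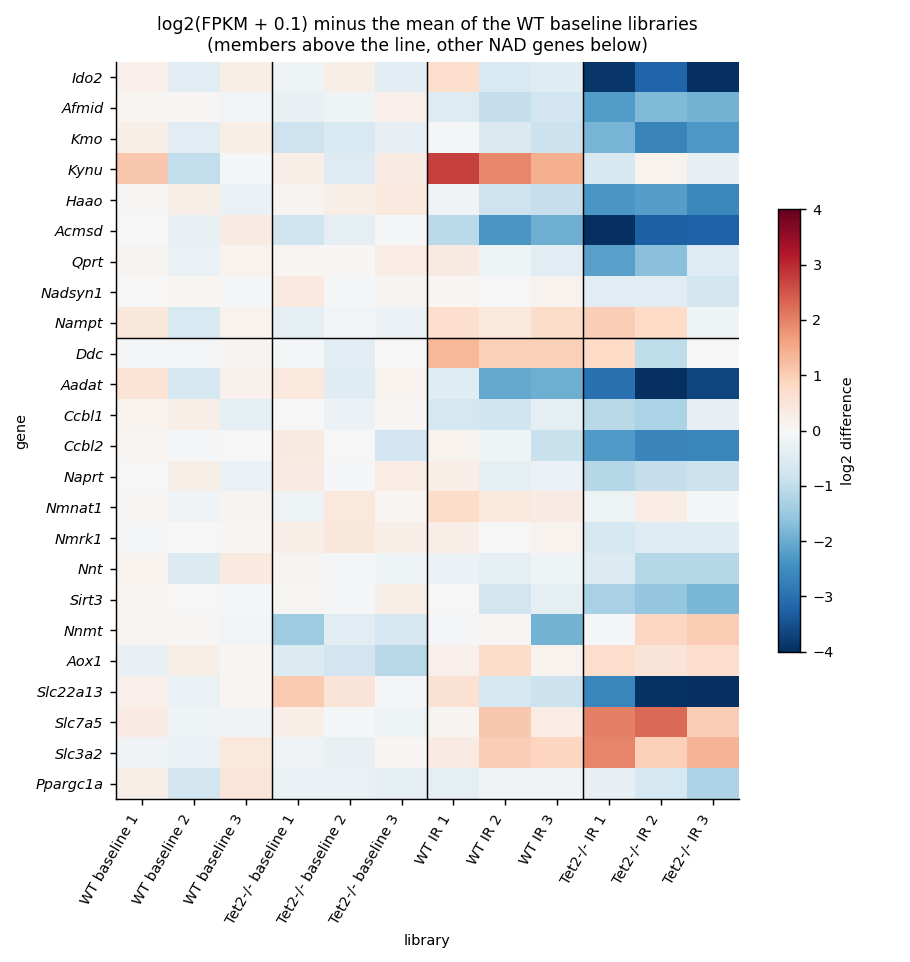
log2(FPKM + 0.1) of the members (above the line, without Tdo2) and other NAD genes in each of the 12 libraries, minus the mean of the 3 WT baseline libraries, with blue lower and red higher. The 3 IR columns labelled Tet2-/- are blue for Ido2, Acmsd, Haao, Aadat, Ccbl2 and Slc22a13 and red for Slc7a5 and Slc3a2, and Kynu is red in the 3 WT IR columns.

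The genes most like each member over the 12 libraries were found by Pearson's r of log2 CPM (counts scaled to library size) among 12870 genes with a mean of at least 1 FPKM in a group. These values describe libraries that share 4 groups and carry no test. Haao was most like Bphl (0.995), Pecr (0.992) and Hps5 (0.992), Afmid most like Klc4 (0.992), Acsm5 (0.990) and AI314278 (0.989), and Ido2 most like Uroc1 (0.991), Aqp1 (0.985), which is among the proximal tubule markers, and Cxcl12 (0.984). Acmsd was most like Trim63 (0.988), Proz (0.987) and Vkorc1 (0.983), and Kmo most like Aldh5a1 (0.985), Dmgdh (0.981) and Abat (0.981). Qprt was most like Nxph4 (0.979), Rsph3b (0.967) and Tpi1 (0.966), and Nadsyn1 most like Pyroxd2 (0.961), Phyhd1 (0.959) and Sema4g (0.950). Nampt was most like Gdap10 (0.955), which it overlaps, Cbwd1 (0.941) and Exoc2 (0.912). Kynu had no close match, with Gsta3 at 0.873, Slc18b1 at 0.866 and Entpd5 at 0.861, and Tdo2, at a few counts a library, reached 0.900 with Pgrmc1, 0.887 with Gid8 and 0.885 with Tmem50b.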

How the data were processed

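Whole-kidney RNA from 12 mice was sequenced in 4 groups of 3, as the labels give them. The labels do not tie same-numbered libraries to a shared litter or day, and p-values measure the spread between these 3 libraries. According to the methods and the submitters' processing notes, reads were aligned to mm9 with STAR and counted on RefSeq transcripts with HOMER. The authors deposited unnormalised expected counts for each transcript beside FPKM values, which they had divided by transcript length and library total. Of the counts 38.7% are not whole (steps of 0.5), so they were rounded before the count tests. Reads shared by overlapping genes or related transcripts can be split in such counts. Aligner and counter versions are not given in the sources used here.

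From 34600 rows the transcript with the highest total was kept for each of 24421 symbols (5569 had several). edgeR 4.0.16 (R 4.3.3) with TMM scaling, filterByExpr and the quasi-likelihood test was fitted to the 6 libraries of each comparison, and to 12 for the interaction, with p-values adjusted over all genes tested. A fold change is the second group over the first on the log2 scale and SE is its standard error. The fitting was tested on simulated data. The promoter table was matched by symbol (8 of 10 members), and 1 promoter, 1 motif and 1 regulator gene are not reported here. Alternatives were DESeq2 1.42.0, edgeR's exact test, other scalings and filters, limma 3.58.1 on log2(FPKM + 1) and log2(FPKM + 0.1), 1 fit of all libraries, all transcripts, a replicate block, an adipocyte covariate and leaving out each library. Library totals were 51007366 to 107969888 counts, which limits the precision for Tdo2, Ido1 and Nmrk2, at 0 to 15.5 counts a library.

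Deviations of same-numbered libraries from their group means, taken from the data alone, were correlated between groups. For IR the values were r = 0.353, 0.352 and 0.347 in WT and 0.121, 0.352 and 0.204 in Tet2-/-. Between genotypes they were -0.174, -0.151 and 0.0526 at baseline and 0.00123, 0.206 and 0.305 after IR. Libraries of unlike number were not compared, so these values cannot show whether same-numbered libraries belong together.

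Named were all 10 members, the other NAD genes called in a comparison of 2 groups, Ido1, Naprt, Nmnat1, Nnmt, Ppargc1a, Tet2 and the 3 genes most like each member. Got2 was named for the ratio to Kynu. Members, lists, markers and the CpG count were chosen with earlier results of these data known.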

Additional observations from a re-analysis of the deposited data

Results flagged for a closer look

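For 4 members and 5 other NAD genes the IR effect differed between genotypes by the interaction test over 12 libraries (edgeR, adjusted p under 0.05). Each of these differences was negative, where 5.39% of 16741 genes passed in that direction and 3.79% in the other. The differences of log2 fold changes, labelled Tet2-/- minus WT, were -4.23 for Ido2, -2.19 for Haao, -1.31 for Afmid and -0.93 for Nadsyn1. Among the other NAD genes they were -4.15 for Slc22a13 (SE 0.86, adjusted p = 0.0158), -2.35 for Ccbl2 (SE 0.39, adjusted p = 0.00717), -1.43 for Sirt3 (SE 0.26, adjusted p = 0.00913), -1.25 for Naprt (SE 0.26, adjusted p = 0.0164) and -1.16 for Nmrk1 (SE 0.18, adjusted p = 0.00534). Tet2 itself differed by -2.00 (SE 0.48, adjusted p = 0.0285), with the FPKM of each library as given above.

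Of 14 proximal tubule markers 6 passed the same test with a negative difference, against 5.39% of all genes. The list had a median of -1.34 beside -1.39 for the members and 0.10 for all genes. The part of these markers in the differences was not tested.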

How the results depend on the processing

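The count of members lowered by IR in WT kidneys was 1 and became 2 with no fold limit, 0 with the adipocyte covariate and 0 to 1 with 1 library left out. The count raised was 0 and became 1 (Kynu) with DESeq2, the exact test and the replicate block. Between genotypes after IR, 6 members were lower, which became 7 with DESeq2, the exact test and 1 fit of 12 libraries (Qprt added), 2 with the adipocyte covariate (Ido2 and Haao), 2 (Haao and Qprt) without WT IR replicate 1 and Tet2-/- IR replicate 3, which was chosen after seeing the data, 5 with the replicate block (Acmsd lost) and 3 to 6 with 1 library left out, the 3 without Tet2-/- IR replicate 1 (Ido2, Kynu and Acmsd lost). For the interaction 4 became 8 with DESeq2, 8 with the replicate block within each genotype, 5 with the block across all libraries, and 0 with the adipocyte covariate. IR in Tet2-/- gave 6 to 7 lower members over all alternatives, and the block changed no other call of a member. Among other NAD genes in that comparison, Nnt (-0.85 to -0.90) and Ccbl1 (-0.81 to -0.83) fell under the fold limit with library sizes alone and limma, and Ccbl1 (-0.97) also in 1 fit of 12 libraries, while Nnmt (0.57) and Aox1 (0.41) did so with limma (pseudocount 1).

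Some log2 fold changes changed sign, and the cause was not tested. With IR in WT they were Ido2 (-0.6374 to 0.1650 with 1 library left out) and Nadsyn1 (-0.0032 with upper quartile scaling, -0.0020 with the adipocyte covariate, -0.0615 to 0.1097 with 1 library left out). Between genotypes at baseline Afmid gave -0.0517 with library sizes alone, -0.0074 in 1 fit of 12 libraries, -0.0826 and -0.0846 with limma (pseudocounts 1 and 0.1), -0.1471 with the adipocyte covariate, and Kynu 0.0193 with limma (0.1) and 0.1596 with the block. With 1 library left out the ranges there were -0.1473 to 0.1476 for Afmid, -0.541 to 0.7479 for Kynu, -0.5534 to 0.3393 for Tdo2, -0.2405 to 0.0901 for Ido2 and -0.4625 to 0.0279 for Nampt. After IR Nampt gave 0.1803 with the adipocyte covariate, 0.1162 with 2 libraries left out and -0.3871 to 0.1109 with 1 left out. In the interaction Tdo2 gave 0.0062 and 0.0137 with limma, 0.5427 with the adipocyte covariate and -0.984 to 0.4998 with 1 library left out, and Nampt -0.0054 with the block within genotype and -0.1456 to 0.3699. None of these values was called.

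Counts over all genes moved more. Genes called higher and lower were 234 and 142 for IR in WT, and 488 and 490 with DESeq2, 428 and 559 with the block, and 0 and 0 with the adipocyte covariate. At baseline 2 and 0 became 23 and 298 with DESeq2 and 19 and 275 with the exact test. After IR 373 and 623 became 770 and 872 with DESeq2, 52 and 104 with the adipocyte covariate and 10 and 39 with 2 libraries left out. The interaction's 634 and 902 became 1210 and 1600 with DESeq2 and 20 and 47 with the adipocyte covariate. The share of calls that were higher was 52.3% for IR in Tet2-/- and 67.2% with library sizes alone, and 41.3% and 61.7% for the interaction. Low counts limit Tdo2, Ido1 and Nmrk2. The exact test could not be fitted to the interaction.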

Other observations

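Among the 3 WT IR libraries, replicate 1 had the lowest Havcr1 (214 FPKM against 559 and 670 FPKM) and the lowest Lcn2 (74.2 FPKM against 476 and 158 FPKM), which encodes the injury marker neutrophil gelatinase-associated lipocalin. The same library had the highest level of 7 of the 10 members, namely Ido2 (8.87 FPKM), Afmid (31.0 FPKM), Kmo (39.9 FPKM), Kynu (3.85 FPKM), Haao (173 FPKM), Acmsd (14.4 FPKM) and Qprt (63.8 FPKM). The share of all genes that were highest in this library was not counted, so the 7 cannot be set against it. Of the 14 proximal tubule markers, 9 were highest of the 3 libraries in this one, among them Aqp1 (649 FPKM against 428 and 362 FPKM), and 3 were lowest, Slc5a2 (7.48 FPKM against 54.9 and 102 FPKM), Slc5a12 (1.48 FPKM against 12.995 and 35.0 FPKM) and Gatm (17.9 FPKM against 22.0 and 57.9 FPKM). The mean log2(FPKM + 0.1) of the collecting duct markers was 6.22 against 5.59 and 5.70. Of 10 macrophage and monocyte markers 8 were highest and 2 lowest in this library, and of 9 neutrophil markers 0 were highest and 8 lowest. In the IR libraries labelled Tet2-/- the highest value fell in different libraries, as with Kmo in replicate 1 (11.7 FPKM), Haao in replicate 2 (41.0 FPKM) and Qprt in replicate 3 (35.0 FPKM). These values were picked out after they had been seen, come from 3 libraries a group and were not tested.

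The shorter Kynu transcript (NM_001289593) ran at 4.52, 2.57 and 1.58 FPKM in WT after IR and 0.37, 0.61 and 0.40 FPKM in IR libraries labelled Tet2-/-, beside 1.31, 0.13 and 0.49 FPKM in WT at baseline. The 3 transcripts of Kynu start at the same base and overlap, so their counts can share reads. How much sequence they share was not analysed.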
